A study of Mus musculus with 6 samples.

Results

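The miR-15, miR-16, miR-195 and miR-497 family was followed in small RNA sequencing of the renal cortex of C57BL/6 mice. The members were taken by name from the deposited count tables, as mmu-miR-15a-5p, mmu-miR-15b-5p, mmu-miR-16-5p, mmu-miR-195a-5p, mmu-miR-195a-3p and mmu-miR-497-5p (mmu marks mouse and is left out below where names recur). They are 6 of the 1900 mature miRNA names listed, and all 6 were found. Of these, 5 are 5p arms that carry the family's seed, and miR-195a-3p is the other arm of the miR-195a hairpin. Only miR-16-5p had more than 1 row, because it is made from a hairpin in each of a pair of clusters, and its larger row was used in each library.

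Every mouse received a diet labelled HF/HC/HS/BA for 8 weeks, so the diet is shared by all libraries. This diet was high in fat and cholesterol with bile salt, and the HS part of its label is not spelled out here. In 3 mice it was given alone, under the label NASH, and in 3 mice it contained tofogliflozin, under the label NASHTofo. Tofogliflozin inhibits SGLT2, the cotransporter that takes glucose back from the filtrate in the proximal tubule. No mice on ordinary chow are among these libraries, and neither their age nor their sex is given in the labels. The labels name no genetic change in either group.

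A miRNA guides Argonaute proteins to messenger RNAs mainly through its seed, bases 2 to 8 from the 5′ end, and miRNAs with 1 seed share many targets. The miR-15 and miR-16 family is known for slowing the cell cycle and favouring apoptosis, through targets that include cyclins D and E, the kinase CDK6 and the survival protein BCL2. The cluster of miR-15a and miR-16-1 is the one lost in many chronic lymphocytic leukaemias, and miR-195 is known for the withdrawal of heart muscle cells from the cell cycle after birth. miR-16 is also plentiful in red blood cells.

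The mature sequences are shown because they set which members can share targets and which can be mistaken for each other in counting. All 6 members had an entry in the RefSeq table of build GRCm38.p6, where miR-497-5p has the later name miR-497a-5p. Capitals mark the seed.

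mmu-miR-15a-5p: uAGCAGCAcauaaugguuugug
mmu-miR-15b-5p: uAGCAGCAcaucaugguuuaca
mmu-miR-16-5p: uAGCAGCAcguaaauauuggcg
mmu-miR-195a-5p: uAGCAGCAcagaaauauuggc
mmu-miR-497-5p: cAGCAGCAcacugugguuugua
mmu-miR-195a-3p: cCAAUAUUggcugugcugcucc
mmu-miR-16-1-3p: cCAGUAUUgacugugcugcuga
mmu-miR-322-5p: cAGCAGCAauucauguuuugga
mmu-miR-503-5p: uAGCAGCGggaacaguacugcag

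The 5 members from 5p arms shared the seed AGCAGCA, while miR-195a-3p had CAAUAUU. Outside the seed the members were alike to different degrees. miR-16-5p and miR-195a-5p differed at 2 of their 21 shared positions, counted from the 5′ end, whereas miR-16-5p and miR-15b-5p differed at 8 of 22. miR-15a-5p and miR-15b-5p differed at 4 of 22, miR-15a-5p and miR-497-5p at 5 of 22, and miR-15b-5p and miR-497-5p at 6 of 22. miR-195a-3p differed from miR-16-1-3p, the other arm of miR-16-1, at 4 of 22. How many mismatches the authors' counting allowed is not stated in the labels or files, so reads of the closest pairs may be split with some error. miR-322-5p, encoded on X, has the same seed, and miR-503-5p beside it has AGCAGCG.

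The members come from 3 clusters. On chromosome 14, on the minus strand, GENCODE M21 (build GRCm38, which is mm10) places Mir15a at 61632027 to 61632110 in an intron of the long non-coding gene Dleu2, and Mir16-1 at 61631880 to 61631972, overlapping an exon of a Dleu2 transcript, with 54 bases between the hairpins. On chromosome 3, on the plus strand, Mir15b lies at 69009772 to 69009835 and Mir16-2 at 69009902 to 69009996, both in an intron of Smc4, a subunit of condensin. On chromosome 11, on the plus strand, Mir497 lies at 70234717 to 70234800 and Mir195a at 70235042 to 70235135, with 241 bases between them. No other annotated gene overlaps Mir195a, and Mir497b overlaps Mir497 on the opposite strand. Whether the counting used strand is not stated in the labels or files.

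The hairpins of miR-195a and of both miR-16 genes are printed to show where their arms lie. Both arms of miR-15a and of miR-15b were counted too. Capitals mark the 5p arm first and the 3p arm second.

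Mir195a: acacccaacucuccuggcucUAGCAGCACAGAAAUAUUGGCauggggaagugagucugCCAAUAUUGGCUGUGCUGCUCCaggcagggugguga
Mir16-1: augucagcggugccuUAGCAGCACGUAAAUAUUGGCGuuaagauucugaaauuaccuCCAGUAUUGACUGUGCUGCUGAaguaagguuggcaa
Mir16-2: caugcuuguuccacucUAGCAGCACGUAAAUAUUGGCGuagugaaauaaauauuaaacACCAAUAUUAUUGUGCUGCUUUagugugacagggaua

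Levels are in CPM, read counts scaled to a common library size with TMM factors. Counts summed over the largest row of each name were 6643638 to 22886200 per library, the fewest in tofogliflozin mouse 2. That library lay far from the other 5 along principal component 1 of log2 CPM, with 52.0% of the variance on that axis. The kidney tubule miRNAs miR-192-5p, miR-194-5p, miR-204-5p, miR-10a-5p and miR-30a-5p were counted in every library. They summed to 159897 to 170207 CPM on the diet alone and 147541 to 171556 CPM with tofogliflozin. Of these only miR-204-5p had groups that did not overlap, at 250 to 291 CPM (diet only) and 373 to 492 CPM (tofogliflozin). Summed levels of miRNAs of other cells were 50.4 to 170.0 CPM (diet only) and 87.4 to 229.5 CPM (tofogliflozin) for 5 erythroid markers, 140 to 193 and 129.7 to 195.2 CPM for 6 leukocyte markers, 18258 to 22210 and 15286 to 20925 CPM for 2 endothelial markers, and 52887 to 57510 and 32051 to 58859 CPM for 4 markers of smooth muscle and pericytes. The hepatocyte miRNA miR-122-5p was at 40.7 to 78.6 CPM on the diet alone and at 45.8 to 245 CPM with tofogliflozin. No marker of these lists was at 0 in any library, and the lowest sum of smooth muscle and the highest of erythroid and leukocyte markers and of miR-122-5p were in tofogliflozin mouse 2. Single markers did not all follow these sums. In that mouse miR-143-3p (31421 CPM) and miR-145a-3p (143 CPM) were lowest, but miR-143-5p (64.9 CPM) and miR-145a-5p (423 CPM) were highest. Of leukocyte markers, miR-155-5p (88.6 CPM) and miR-142-3p (11.9 CPM) were highest there. By contrast, miR-150-5p (46.8 CPM) and miR-142-5p (9.69 CPM) were lowest, with miR-223-3p and miR-342-3p in between. In bulk tissue, fewer cells of a type and less RNA per cell cannot be told apart.

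The family as a whole was a small part of the cortical miRNA. Its 6 members together took 0.0512% to 0.0560% of the counts in the diet-only libraries and 0.0519% to 0.0545% in the tofogliflozin libraries, so the ranges overlapped. Within that sum miR-16-5p held 48.2% to 52.1% on the diet alone and 41.7% to 50.4% with tofogliflozin. miR-195a-3p held 28.1% to 31.0% and 25.3% to 40.9%, with both the lowest and the highest share under tofogliflozin.

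By mean level the order was miR-16-5p, at 261 CPM (rank 103 of the 1900 names), miR-195a-3p (168 CPM, rank 119), miR-195a-5p (81.8 CPM, rank 144), miR-497-5p (15.5 CPM, rank 215), miR-15a-5p (6.30 CPM, rank 274) and miR-15b-5p (6.13 CPM, rank 277). Members are 21 or 22 bases long, so levels are given per miRNA. Each of the first 4 exceeded the next in 6 of 6 libraries, by a geometric mean of 1.57-fold for miR-16-5p over miR-195a-3p, 2.05-fold for miR-195a-3p over miR-195a-5p, 5.28-fold for miR-195a-5p over miR-497-5p and 2.59-fold for miR-497-5p over miR-15a-5p (exact 2-sided sign-flip test over 6 libraries, p = 0.0313 each, the smallest it can give, adjusted p = 0.0391 over 5 neighbouring pairs). miR-15a-5p and miR-15b-5p did not differ beyond their spread, with miR-15a-5p higher in 3 of 6 libraries (exact sign-flip adjusted p = 0.969). This test was chosen after the levels were seen, and it compares read counts of different miRNAs. Its pairs were set by the order of mean level in the same 6 libraries, so its p-values are no independent support for that order.

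**Figure D1:**
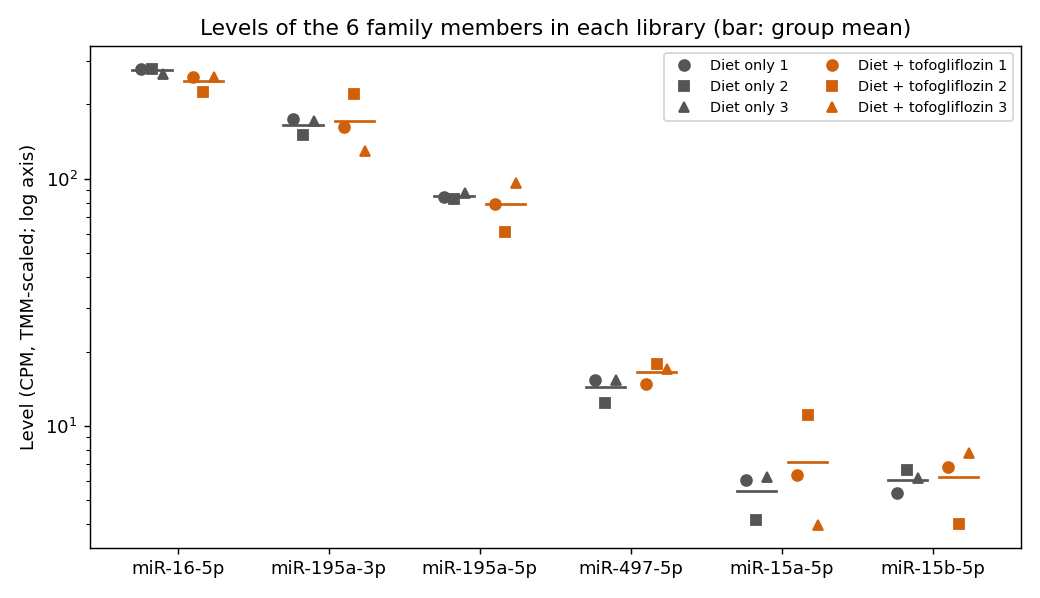
Level of each family member in each library, in CPM on a log axis, with members in order of mean level. Grey symbols are the 3 diet-only mice, orange symbols the 3 tofogliflozin mice, symbol shape the mouse number and bars the group means. miR-16-5p is highest and miR-15a-5p and miR-15b-5p lie together at the bottom, and for miR-16-5p alone the orange symbols all lie below the grey ones.

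miR-16-5p, the most abundant member and the product of both Mir16 genes, was at 278, 279 and 267 CPM in diet-only mice 1, 2 and 3 and at 259, 225 and 259 CPM in tofogliflozin mice 1, 2 and 3. All 3 tofogliflozin values lay below all 3 diet-only values, with mouse 2 the lowest. Group means were 275 ± 6.90 CPM and 248 ± 19.4 CPM (SD, n = 3 each). The log2 fold change, tofogliflozin over diet only, was -0.15 ± 0.12 (SE), with a 95% interval of -0.43 to 0.14, and it was not past the threshold of 0.05 in edgeR's quasi-likelihood test with Benjamini-Hochberg adjustment over all 460 miRNAs tested (adjusted p = 0.877). On log2 CPM, the exact permutation test (2-sided) gave p = 0.1, which is the lowest value possible with 3 libraries per group. Without tofogliflozin mouse 2 the log2 fold change was -0.081.

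Groups did not overlap for 12.0% of the tested miRNAs, so 1 of 6 members with separate groups is near that background. None of the 6 members was called, where edgeR's test called 0% of the 460 miRNAs. At an unadjusted p under 0.05 the background was 5.0%, and 0 of the 6 members were there. The members' median log2 fold change was 0.05, with 4 above 0 and 2 below, beside a median of -0.0052 with 226 above and 234 below over all tested miRNAs.

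Since miR-16 is plentiful in red blood cells, erythroid miRNAs stand beside it. miR-451a, the red cell miRNA cut by Argonaute itself, was at 3.52, 9.73 and 12.99 CPM in diet-only mice and at 14.7, 11.3 and 7.69 CPM in tofogliflozin mice. miR-486-5p was at 42.9, 70.7 and 151 CPM and at 129, 212 and 75.9 CPM. miR-486-3p was at 3.79, 3.51 and 5.26 CPM and at 3.03, 5.07 and 3.10 CPM. The miR-144 arms were near the limit of detection, at 0.220, 0.585 and 0.260 CPM and at 0.666, 1.04 and 0.664 CPM for miR-144-3p and at 0.0440, 0.146 and 0.520 CPM and at 0.666, 0.447 and 0.0553 CPM for miR-144-5p. The highest level was in tofogliflozin mouse 2, which had the least miR-16-5p, for miR-486-5p and miR-144-3p, in tofogliflozin mouse 1 for miR-451a and miR-144-5p, and in diet-only mouse 3 for miR-486-3p. Their part in the level of miR-16-5p was not tested.

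Which gene gives miR-16-5p cannot be read from its own reads, since both hairpins hold the same mature sequence. The row of Mir16-1 exceeded that of Mir16-2 by 13, 30 and 23 reads in diet-only mice and 26, 5 and 47 reads in tofogliflozin mice, at most 1.004% of the larger row. The other arms differ between the genes. miR-16-1-3p was at 33.1, 30.3 and 38.3 CPM on the diet alone and at 28.7, 33.7 and 20.5 CPM with tofogliflozin, lowest in tofogliflozin mouse 3. miR-16-2-3p was at 0, 1.17 and 0.520 CPM and at 0.296, 0.447 and 0.332 CPM. Over all libraries 2741 reads of miR-16-1-3p stood against 37 of miR-16-2-3p, so 98.7% of these reads carried the Mir16-1 sequence. In diet-only mouse 1 the count of miR-16-2-3p was 0, which allows up to 0.132 CPM (3 counts). How strongly each hairpin keeps its 3p arm was not measured. For miR-16-1-3p the log2 fold change was -0.30 ± 0.22 (SE; adjusted p = 0.859 by edgeR), with overlapping groups. It was -0.098 without tofogliflozin mouse 3 and -0.46 without mouse 2.

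The partners of miR-16 in its clusters were much scarcer. miR-15a-5p, from the Dleu2 cluster, was at 6.03, 4.17 and 6.24 CPM in diet-only mice and at 6.36, 11.04 and 3.98 CPM in tofogliflozin mice. Tofogliflozin mice held both the highest value, in mouse 2, and the lowest, in mouse 3. These values rest on 57 to 137 reads, and counting error alone gives an exact 95% Poisson interval of 8.67 to 13.9 CPM in tofogliflozin mouse 2 and 3.12 to 5.01 CPM in mouse 3. Those intervals, of the highest and the lowest value, do not overlap, and they leave out the variation of library preparation. Between the groups the log2 fold change was 0.34 ± 0.38 (SE), interval -0.54 to 1.22 (edgeR adjusted p = 0.877), -0.097 without tofogliflozin mouse 2 and 0.66 without mouse 3.

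miR-15b-5p, from the Smc4 intron, was at 5.37, 6.65 and 6.17 CPM on the diet alone and at 6.80, 4.03 and 7.74 CPM with tofogliflozin. Its lowest value was in tofogliflozin mouse 2, on 27 reads (Poisson interval 2.65 to 5.86 CPM), and its highest in tofogliflozin mouse 3, on 140 reads (6.51 to 9.14 CPM), the reverse of miR-15a-5p. The log2 fold change was 0.057 ± 0.28 (SE), interval -0.59 to 0.70 (edgeR adjusted p = 0.988). It was 0.27 without tofogliflozin mouse 2 and -0.11 without mouse 3.

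The chromosome 11 cluster came next. miR-195a-5p, which shares most of its sequence with miR-16-5p, was at 84.1, 82.9 and 87.7 CPM in diet-only mice and at 79.1, 61.1 and 96.2 CPM in tofogliflozin mice. Diet-only mice lay close together, and the tofogliflozin mice lay on both sides of them. Group means were 84.9 ± 2.53 CPM and 78.8 ± 17.5 CPM (SD, n = 3 each). Their log2 fold change was -0.11 ± 0.19 (SE), interval -0.54 to 0.33 (edgeR adjusted p = 0.943), 0.049 without tofogliflozin mouse 2 and -0.25 without mouse 3.

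miR-195a-3p, the other arm of that hairpin, was at 175, 150 and 171 CPM on the diet alone and at 162, 221 and 130 CPM with tofogliflozin. Tofogliflozin mouse 2 was the highest and mouse 3 the lowest, opposite to the 5p arm in the same libraries. Group means were 165 ± 13.4 CPM and 171 ± 46.1 CPM (SD, n = 3 each). For this arm the log2 fold change was 0.045 ± 0.20 (SE), interval -0.43 to 0.52 (edgeR adjusted p = 0.988). It was -0.18 without tofogliflozin mouse 2 and 0.24 without mouse 3.

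miR-497-5p, whose hairpin is next to that of miR-195a, was at 15.4, 12.4 and 15.4 CPM in diet-only mice and at 14.8, 17.7 and 16.98 CPM in tofogliflozin mice. Tofogliflozin mice 2 and 3 were above every diet-only mouse, while mouse 1 lay among them. This gave a log2 fold change of 0.19 ± 0.18 (SE), interval -0.23 to 0.62 (edgeR adjusted p = 0.877), and 0.14 without tofogliflozin mouse 2. For miR-497-3p no read was counted in any library, which allows at most 0.132 to 0.447 CPM.

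Members differed in which libraries were high or low. Around its own mean log2 CPM, tofogliflozin mouse 2 was at 0.88 for miR-15a-5p, 0.41 for miR-195a-3p and 0.21 for miR-497-5p, but at -0.56 for miR-15b-5p, -0.41 for miR-195a-5p and -0.21 for miR-16-5p. Tofogliflozin mouse 3 was at -0.56 for miR-15a-5p and -0.35 for miR-195a-3p, and at 0.36 for miR-15b-5p and 0.25 for miR-195a-5p. These 4 members thus stood on opposite sides of their means in the 2 mice of the same group. The same 2 mice were at the opposite ends of principal component 1 over all tested miRNAs (13.8 and -6.17). Outside the family miR-30a-5p (0.52 and -0.36) and miR-143-3p (-0.68 and 0.21) were split likewise, and miR-204-5p (0.50 and 0.10) was not. The share of all tested miRNAs split in this way was not counted. Over all tested miRNAs the median size of the deviation from the own mean in tofogliflozin mouse 2 was 0.39, so the members' deviations lie on both sides of it. The standard deviation of log2 CPM over 6 libraries was 0.11 for miR-16-5p, 0.18 for miR-497-5p, 0.22 for miR-195a-5p, 0.25 for miR-195a-3p, 0.32 for miR-15b-5p and 0.52 for miR-15a-5p, beside a median of 0.34 over all tested miRNAs and 0.20 over the 166 with a mean of at least 50 CPM.

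**Figure D2:**
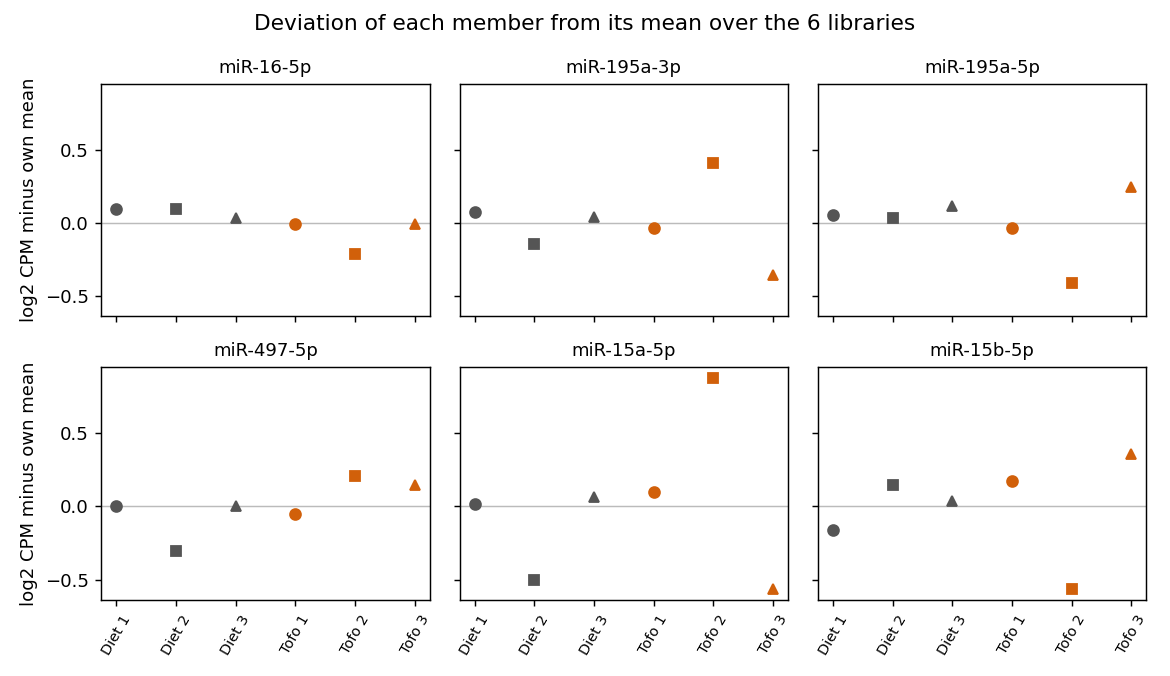
Deviation of each member's log2 CPM from its own mean over 6 libraries, with the diet-only mice in grey, the tofogliflozin mice in orange and mouse number by symbol shape. Tofogliflozin mouse 2 lies above 0 for miR-15a-5p, miR-195a-3p and miR-497-5p and below 0 for the other members, and tofogliflozin mouse 3 is on the other side of 0 for miR-15a-5p, miR-15b-5p and both arms of miR-195a.

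Likeness between profiles was measured as the root mean square difference of log2 CPM over 6 libraries, each miRNA centred on its own mean. The measure is not scaled to the spread of a miRNA, so it is small wherever both miRNAs vary little, and miR-16-5p varied least of the members. Within the family, miR-16-5p and miR-195a-5p were closest (0.14), followed by miR-15b-5p and miR-195a-5p (0.16), and miR-15a-5p and miR-15b-5p were farthest apart (0.75). The arms of miR-195a differed by 0.42 and miR-195a-5p and miR-497-5p by 0.29, although each pair comes from 1 cluster. Among 163 other miRNAs with a mean of at least 50 CPM, miR-16-5p was most like let-7g-5p (0.015) and miR-30b-3p (0.047), where the median miRNA differed by 0.19. miR-195a-5p was most like miR-125b-5p (0.062) and miR-30a-3p (0.076), with a median difference of 0.24. For miR-15b-5p the closest were miR-322-3p (0.10) and miR-199a-3p (0.10), for miR-15a-5p miR-103-3p (0.14) and miR-200b-3p (0.14), and for miR-497-5p miR-27b-5p (0.088) and miR-151-3p (0.11). The median miRNA differed by 0.32 from miR-15b-5p, 0.50 from miR-15a-5p and 0.26 from miR-497-5p. These values are descriptions over 6 libraries, and all miRNAs of a library share its depth and scaling factor.

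Ratios of counts within a library need no scaling between libraries, so they were used to compare members of the clusters. The sum of miR-195a-5p and miR-497-5p, for chromosome 11, was 8.72, 8.80 and 8.31 times the sum of miR-15a-5p and miR-15b-5p in diet-only mice, and 7.13, 5.24 and 9.66 times in tofogliflozin mice. This ratio does not compare whole clusters, since it leaves out miR-16-5p and miR-195a-3p. By mean level miR-16-5p (261 CPM), from the clusters of miR-15a and miR-15b, was above miR-195a-5p (81.8 CPM) and miR-497-5p (15.5 CPM). Diet-only mice were close together, and tofogliflozin mice lay on both sides. The log2 ratio was 3.10 ± 0.045 and 2.82 ± 0.44 (SD, n = 3 each), a difference of -0.28 (exact permutation p = 0.4, adjusted p = 0.8 over 6 ratios), which was -0.053 without tofogliflozin mouse 2 and -0.50 without mouse 3.

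The ratio of miR-15a-5p to miR-15b-5p, from the clusters that also hold miR-16, was 1.12, 0.626 and 1.01 on the diet alone and 0.935, 2.74 and 0.514 with tofogliflozin. Tofogliflozin mice gave both the highest and the lowest value. The log2 ratio differed by 0.29 (exact permutation p = 0.9, adjusted p = 0.9), by -0.36 without tofogliflozin mouse 2 and by 0.82 without mouse 3.

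miR-16-5p stood at 24.4, 25.8 and 21.5 times the sum of miR-15a-5p and miR-15b-5p in diet-only mice and at 19.7, 14.97 and 22.1 times in tofogliflozin mice. The groups overlapped through tofogliflozin mouse 3. The log2 difference was -0.35 (exact permutation p = 0.2, adjusted p = 0.6), and -0.19 without tofogliflozin mouse 2. In 6 of 6 libraries miR-16-5p was thus at least 14.97 times as frequent among the reads as both partners together.

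Within the chromosome 11 cluster, miR-195a-5p was 5.47, 6.66 and 5.70 times miR-497-5p on the diet alone and 5.35, 3.45 and 5.67 times with tofogliflozin, lowest in mouse 2. The log2 difference was -0.33 (exact permutation p = 0.2, adjusted p = 0.6), and -0.11 without tofogliflozin mouse 2.

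The 3p arm of miR-195a exceeded the 5p arm in reads in every library, though the 5p arm is the one with the family seed. Arm ratios compare read counts of different sequences, and reads of miR-195a-5p and miR-16-5p may be split with some error. The ratio of 5p to 3p reads was 0.480, 0.552 and 0.513 in diet-only mice and 0.488, 0.277 and 0.741 in tofogliflozin mice. Diet-only mice and tofogliflozin mouse 1 lay close together, with tofogliflozin mouse 2 below them and mouse 3 above. The log2 difference was -0.15 (exact permutation p = 0.8, adjusted p = 0.9), 0.23 without tofogliflozin mouse 2 and -0.48 without mouse 3. Other hairpins of the family gave more reads of the 5p arm, with a ratio of 4.36 to 8.60 for miR-15a and 1.51 to 3.29 for miR-15b. The miR-322 hairpin gave more of the 3p arm, with a ratio of 0.0520 to 0.0816, and so did miR-503, at 0.160 to 0.392. The ratio of miR-16-1-3p to miR-16-2-3p differed by -0.79 on the log2 scale with a pseudocount of 1 (exact permutation p = 0.8, adjusted p = 0.9) and rested on at most 16 reads of miR-16-2-3p per library.

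**Figure D3:**
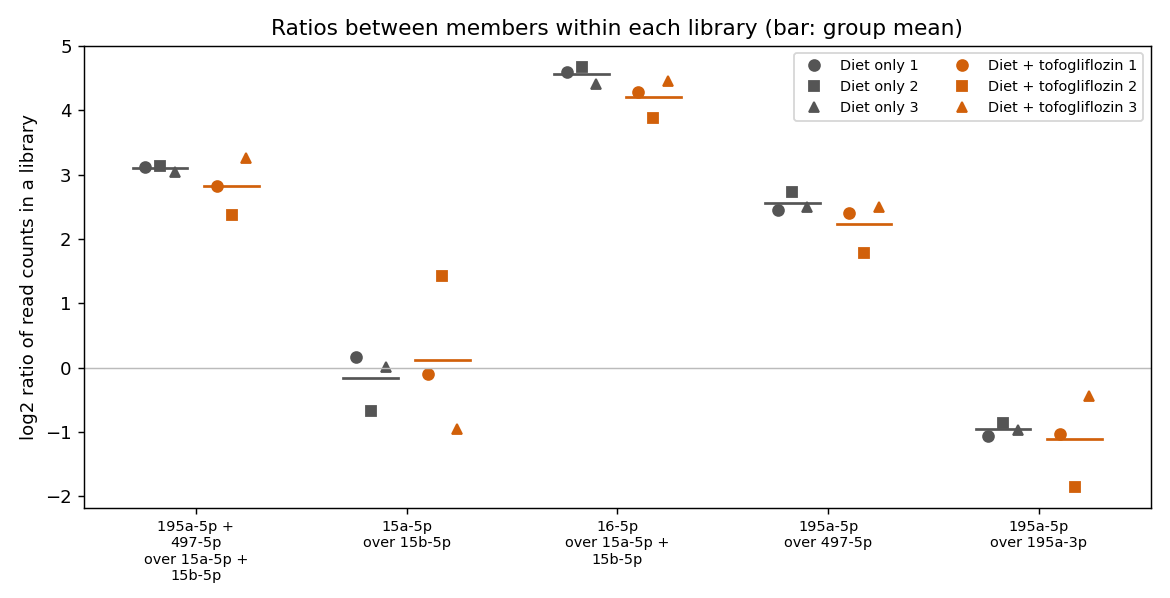
Log2 ratios of read counts between members within each library for 5 of the 6 ratios compared, leaving out that of miR-16-1-3p to miR-16-2-3p. Grey symbols are diet-only mice, orange symbols tofogliflozin mice, symbol shape is the mouse number and bars are group means. The groups overlap in every ratio shown, and tofogliflozin mouse 2 is lowest in all but miR-15a-5p over miR-15b-5p, where it is highest.

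Related miRNAs were taken from a list of 20, holding 5 other arms of the members' hairpins, 6 relatives (5 with the seed AGCAGCA, and miR-503-5p) and 9 other mature miRNAs of the X cluster that holds miR-322 and miR-503. Of these, 13 passed the filter on low counts, 6 with a log2 fold change above 0 and 7 below, and the median was -0.0081. None was called (smallest edgeR adjusted p = 0.854), and groups overlapped for all 13. Of the relatives, miR-195b, miR-6342, miR-6353 and miR-6419 had no read in any library.

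miR-322-5p, the mouse counterpart of human miR-424, was at 6.03, 5.19 and 8.25 CPM on the diet alone and at 5.99, 5.22 and 8.41 CPM with tofogliflozin, a level like that of miR-15a-5p. Its log2 fold change was 0.026 ± 0.28 (SE; edgeR adjusted p = 0.989). miR-503-5p was at 10.2, 12.1 and 13.1 CPM and at 14.7, 9.10 and 17.4 CPM, with a log2 fold change of 0.23 ± 0.26 (SE; edgeR adjusted p = 0.877), which was 0.051 without tofogliflozin mouse 3, 0.14 without diet-only mouse 1 and 0.45 without tofogliflozin mouse 2. The value of miR-351-5p, their neighbour on X, was the largest in size on this list, at 0.54 ± 0.26 (SE; edgeR adjusted p = 0.854). It stood at 211, 219 and 225 CPM on the diet alone and at 288, 457 and 210 CPM with tofogliflozin, and its log2 fold change was 0.19 without tofogliflozin mouse 2 and 0.80 without mouse 3.

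**Figure D4:**
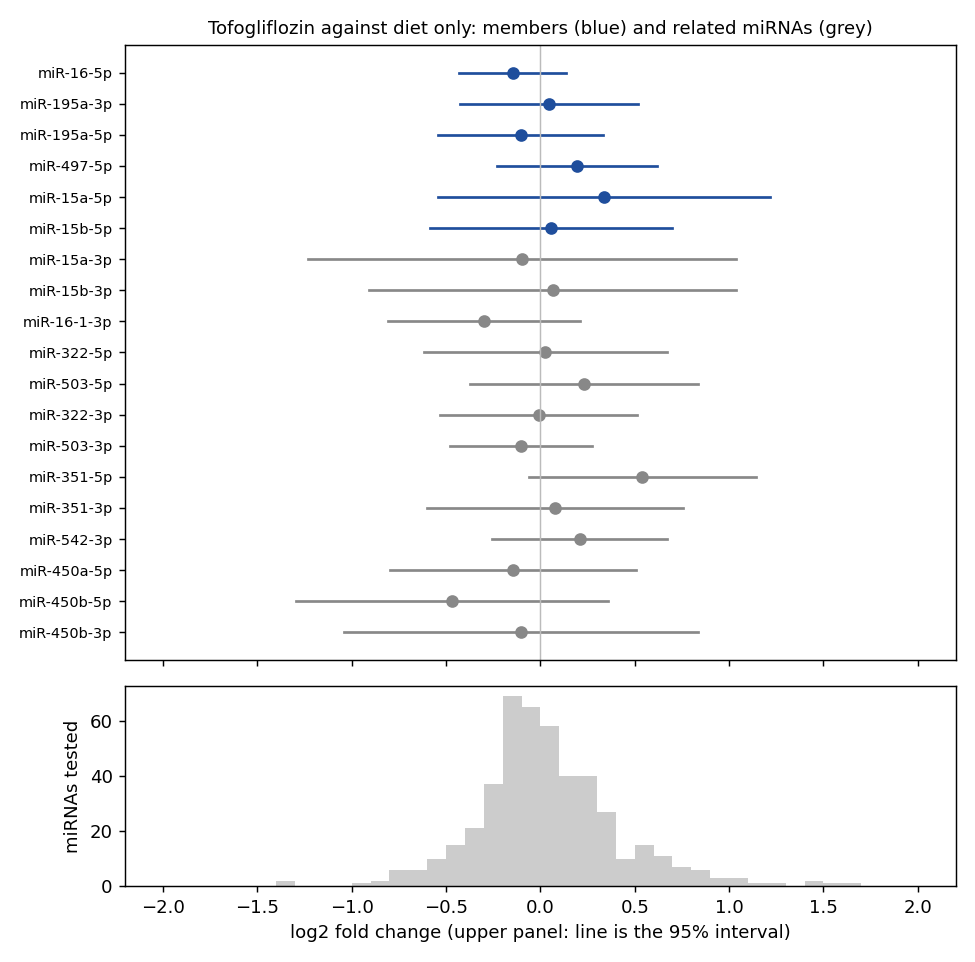
Upper panel, log2 fold change of tofogliflozin over diet only for the 6 members (blue) and the 13 tested related miRNAs (grey), with 95% intervals from edgeR. Lower panel, number of tested miRNAs by log2 fold change over all 460. Every interval shown includes 0, and the widest among members is that of miR-15a-5p.

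The intervals set what these libraries could leave unseen. For miR-16-5p a fold from 0.742 to 1.10 lay within the interval, for miR-195a-5p 0.687 to 1.26, for miR-195a-3p 0.744 to 1.43, for miR-497-5p 0.851 to 1.54, for miR-15b-5p 0.667 to 1.62 and for miR-15a-5p 0.686 to 2.33.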

How the data were processed

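Small RNA libraries of renal cortex were prepared with a NEBNext small RNA kit per the labels' protocols. The authors deposited raw read counts, 1 table per mouse, with 2033 rows that pair a precursor with a mature miRNA. Per the submitters' processing notes, cutadapt 1.14 and build mm10 were used. No source used here names the aligner, the counter or the miRBase release. For 75 names with several rows the largest count per library was used. Library depth, summed over every row, was 29766679, 18695091 and 19697833 in diet-only mice 1 to 3 and 18010296, 8598518 and 22628175 in tofogliflozin mice 1 to 3. Reads had no molecular identifiers in these tables, so floors (3 counts) and intervals cover counting error only.

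Groups were compared by the quasi-likelihood F-test of edgeR 4.0.16 under R 4.3.3 (TMM, filterByExpr with defaults, no covariates, Benjamini-Hochberg over 460 miRNAs, threshold 0.05). The SE comes from the size of the log2 fold change over the root of its F value, and log2 CPM used a prior count of 2. Ratios used a pseudocount of 1 and exact 2-sided permutation tests, adjusted over 6 ratios. Libraries are separate mice per the design text, 3 per group. Named miRNAs were the members, the related list, and per 5p member the 2 closest profiles with a mean of at least 50 CPM. Alternatives were other size factors, other filters, DESeq2 1.42.0, limma-voom (limma 3.58.1), other treatment of repeated rows, the replicate number as a block and each library left out. The fits were tested on simulated data. Members and lists were chosen with earlier results of these data known.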

Additional observations from a re-analysis of the deposited data

How the results depend on the processing

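Members had 27 to 6322 reads per library, the fewest for miR-15b-5p and miR-15a-5p. No member tested was called under any alternative run, by edgeR, DESeq2 or limma-voom (smallest adjusted p of a member 0.366), and miR-15a-5p and miR-15b-5p did not pass the filter of 10 CPM in 3 libraries, so they were not tested there. Over all miRNAs 0 were called, but 10 of 1026 without a low-count filter and 2 by DESeq2. Both of these sets held the tubule marker miR-204-5p. At an unadjusted p under 0.05 the count went from 23 to 75 without tofogliflozin mouse 3. It was 11 without diet-only mouse 2 and 13 without tofogliflozin mouse 1. The cause of these changes and of those below was not tested. The log2 fold change of miR-195a-3p fell below 0 with upper quartile factors (-0.0063) and limma-voom (-0.017). Among related miRNAs, miR-322-3p went above 0 with RLE factors (0.0068), library totals (0.035), DESeq2 (0.0072) and summed rows (0.024), miR-450b-3p with limma-voom (0.0041), and miR-322-5p fell below 0 with no filter (-3.6e-05).

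With 1 library left out, log2 fold changes ran from -0.097 to 0.66 for miR-15a-5p, -0.11 to 0.27 for miR-15b-5p, -0.25 to 0.049 for miR-195a-5p, -0.18 to 0.24 for miR-195a-3p, -0.16 to -0.081 for miR-16-5p and 0.13 to 0.31 for miR-497-5p. The log2 ratio differences ran from -0.36 to 0.82 for miR-15a-5p over miR-15b-5p, -0.48 to 0.23 for the arms of miR-195a and -1.85 to 0.62 for miR-16-1-3p over miR-16-2-3p, where 0.62 is without diet-only mouse 1. They kept their sign for miR-195a-5p plus miR-497-5p over miR-15a-5p plus miR-15b-5p (-0.50 to -0.053), miR-16-5p over that sum (-0.47 to -0.19) and miR-195a-5p over miR-497-5p (-0.47 to -0.11). Ranges that crossed 0 in other miRNAs were -0.49 to 0.22 (miR-15a-3p), -0.48 to 0.34 (miR-15b-3p), -0.18 to 0.24 (miR-322-5p), -0.22 to 0.20 (miR-322-3p), -0.19 to 0.013 (miR-503-3p), -0.057 to 0.22 (miR-351-3p), -0.33 to 0.13 (miR-450a-5p), -0.47 to 0.11 (miR-450b-3p), -0.24 to 0.085 (miR-125b-5p), -0.34 to 0.069 (miR-199a-3p) and -0.15 to 0.46 (miR-200b-3p).

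For a pairing by mouse number, deviations from the group means correlated across miRNAs at r = 0.0027, -0.14 and -0.17 for numbers 1, 2 and 3. With its own number, 0 of 6 libraries correlated best. The labels name no litter, day or batch shared by mice of 1 number, and correlations with 3 libraries per group cannot exclude one. A block for the mouse number called 0 miRNAs, moved the count at an unadjusted p under 0.05 from 23 to 10, and put miR-15b-3p at -0.024.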
